A study of Homo sapiens with 6 samples.

Results

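Homologous recombination repairs a broken chromosome by copying the missing stretch from the intact sister chromatid, and cells do this in S and G2 phase, when a sister is present. In outline, the broken ends are trimmed to single strands, a mediator places a recombinase on these strands, the resulting filament invades the sister duplex, and the joined molecules are then taken apart. The 9 genes described here, BRCA1, BARD1, PALB2, BRCA2, RAD51AP1, RAD54L, XRCC2, XRCC3 and BLM, encode proteins that act along these steps. They were chosen by name, as every row of the deposited count and FPKM tables that carries one of these symbols. Earlier results of these data were known when the names were chosen. All 9 were found among the 30618 genes of the count table, and all 9 passed the filter on low counts that left 16749 genes for testing.

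The cells were ARPE-19, an established human retinal pigment epithelial line, held in 50 mM glucose in every library. The NC group received a control siRNA and the siEIF1 group an siRNA against EIF1, a translation initiation factor that helps the ribosome select the start codon, with 3 libraries in each group. Cells in normal glucose were not analysed here, so the comparison is of the knockdown under high glucose only, in 1 cell line and with 1 control siRNA. The paper's methods list 1 siRNA sequence against EIF1. Effects of that sequence on other genes cannot be told apart from those of the EIF1 knockdown. The comparison asks how the mRNA of the recombination genes differs between these groups.

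The libraries held from 26499929 to 31431479 counts, and counts within a group varied beyond sampling noise (3.03 to 14.3 as chi-square over its degrees of freedom), so no library repeated another of its group. EIF1 itself stood at an FPKM of 294.35, 281.08 and 281.28 in NC replicates 1 to 3 and of 24.28, 22.68 and 23.5 in siEIF1 replicates 1 to 3, so the level of the targeted gene matched the label of each library. FPKM is a fragment count scaled to transcript length and library depth. Levels compared between genes by FPKM rest on the lengths used, which are not given in the sources used here. Of 12 retinal pigment epithelium markers, 10 were in the files, RPE65 and TTR being absent, and 7 passed the filter (RLBP1 called higher, 0 called lower). Their summed FPKM ran from 87.2 to 96.8 in NC and from 66.2 to 89.8 in siEIF1. BEST1 and OTX2 made up most of that sum, while the pigment genes TYR, DCT and TYRP1 reached at most 2, 4 and 15 counts in any library. Whether reads of an overlapping gene add to the BEST1 counts was not tested. The leukocyte markers summed to at most 0.05 FPKM, the endothelial markers to at most 0.26 and the photoreceptor markers to at most 2.81. Because these are bulk samples, fewer cells of a cycle phase and less RNA per cell cannot be told apart.

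The promoters are shown first because 7 of the 9 carry the same run of letters in the full window of 300 bases, from 250 bases before the RefSeq start site to 50 bases from it on, and because the full windows without it belong to BRCA2 and PALB2. For 7 genes, a shorter stretch is printed. Each line gives the gene strand from 100 bases before the RefSeq start site through the first 50 bases of the transcript (RefSeq on GRCh38.p14), with every copy of TTCCCGC on either strand in capitals. These letters are the core of the site bound by E2F factors, which switch on S phase genes. They were picked after these promoters were read. On the reverse strand the core reads as GCGGGAA.

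BRCA1, chr17:43125315-43125464, reverse strand: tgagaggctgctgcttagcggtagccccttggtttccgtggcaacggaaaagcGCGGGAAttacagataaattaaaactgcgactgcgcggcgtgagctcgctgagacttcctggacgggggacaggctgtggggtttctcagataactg
RAD51AP1, chr12:4538790-4538939, forward strand: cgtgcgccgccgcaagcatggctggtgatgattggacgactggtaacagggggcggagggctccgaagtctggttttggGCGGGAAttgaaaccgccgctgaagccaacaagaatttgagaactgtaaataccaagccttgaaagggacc
XRCC2, chr7:152676092-152676241, reverse strand: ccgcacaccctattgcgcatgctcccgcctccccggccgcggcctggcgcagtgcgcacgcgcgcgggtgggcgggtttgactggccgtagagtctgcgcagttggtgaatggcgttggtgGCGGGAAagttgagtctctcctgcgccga
XRCC3, chr14:103715402-103715551, reverse strand: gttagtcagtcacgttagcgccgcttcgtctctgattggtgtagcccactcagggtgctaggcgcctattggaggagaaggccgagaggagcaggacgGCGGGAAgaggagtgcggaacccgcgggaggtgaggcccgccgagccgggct
BLM, chr15:90717246-90717395, forward strand: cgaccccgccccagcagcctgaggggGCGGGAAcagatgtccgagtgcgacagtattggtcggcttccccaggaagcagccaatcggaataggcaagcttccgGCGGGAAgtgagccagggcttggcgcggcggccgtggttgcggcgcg
BRCA2, chr13:32315408-32315557, forward strand: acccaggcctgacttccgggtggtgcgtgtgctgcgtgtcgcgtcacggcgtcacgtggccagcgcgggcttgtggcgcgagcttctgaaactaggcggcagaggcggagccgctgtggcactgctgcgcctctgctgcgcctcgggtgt
PALB2, chr16:23641261-23641410, reverse strand: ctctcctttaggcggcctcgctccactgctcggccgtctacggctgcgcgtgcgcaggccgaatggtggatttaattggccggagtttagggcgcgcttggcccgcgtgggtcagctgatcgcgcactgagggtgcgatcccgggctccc

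In BRCA1 the core began 47 bases before the start site and in RAD51AP1 21 bases before it. In XRCC3 it began 2 bases before the start site, while in XRCC2 it began at base 22 of the transcript. BLM held 2 copies, 74 bases before the start site and at base 4 of the transcript. Among the genes not printed, BARD1 held the core at base 5 of the transcript. RAD54L held it 124 bases before the start site, which is inside the full window and outside the stretch of the printed lines. Over the full windows of 300 bases, the core was in 7 of 9 member promoters and in 2287 of 34943 RefSeq windows (6.54%). Because the letters were picked from these same promoters, the high count among the members is a description and not a test. Of the 16749 tested genes, 11236 (67.1%) could be matched to a window, and 12.5% of those held the core in any of their windows. The shares are counted on unlike units. For the members only the window nearest the canonical start site was read, and 6.54% is a share of windows and not of genes.

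Longer and other letters were searched on both strands of the same windows. The 8-letter E2F forms TTTCCCGC, TTTCGCGC, TTTGCCGC and TTTGGCGC were found in 1 member promoter, that of XRCC2, where the match overlaps the core, and in 3.3% of all windows. The CCAAT box was found in 6 of 9 member promoters, PALB2 included, and in 34.6% of all windows. The cell cycle homology region, TTTGAA or TTCGAA, was in 0 of 9 and in 16.4% of all windows. A match is a description of the letters and not evidence of binding.

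**Figure D1:**
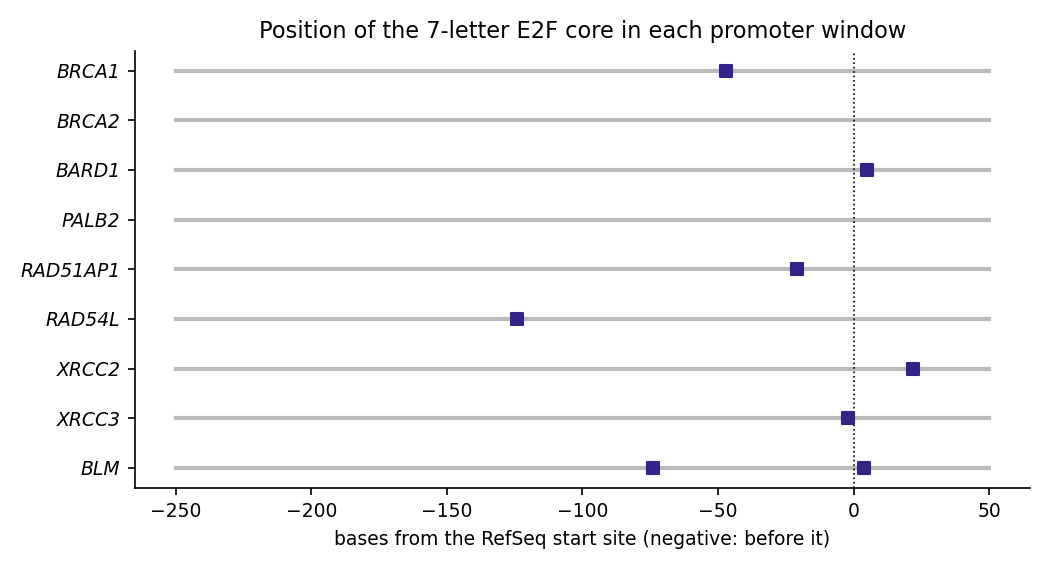
Each grey line is the promoter window of 1 gene, from 250 bases before the RefSeq start site to 50 bases from it on, and each square marks the first base of a copy of the 7-letter core on either strand. In 7 of the 9 windows there is at least 1 square, and the lines of BRCA2 and PALB2 have none. The core was picked after these windows were read.

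Of the 9 recombination genes, 7 fell to less than 50% of their NC level in the siEIF1 libraries, and the median log2 fold change of the 9 was -1.51. BRCA1 and RAD51AP1 fell furthest, to 26% and 25.3% of the NC level, BARD1 lay just short of the 2-fold limit, and PALB2 did not pass the test. A gene was called lower where its fold change was below 0.5 and its adjusted p under 0.05 (quasi-likelihood test of edgeR, p-values adjusted by Benjamini-Hochberg across every gene tested). By that rule 7 of 9 members were called, against 1.31% of all tested genes. Without the limit on the fold change, 8 of 9 were lower at an adjusted p under 0.05 by the same edgeR test, against 10.4% of all genes. The CPM values (counts scaled to library size) of all 9 did not overlap, with siEIF1 the lower group, against 18.9% of all genes. With upper-quartile scaling, or with no filter on low counts, this held for 8 of the 9. The median log2 fold change over all tested genes was 0.0033. No member was higher in siEIF1 than in NC.

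**Figure D2:**
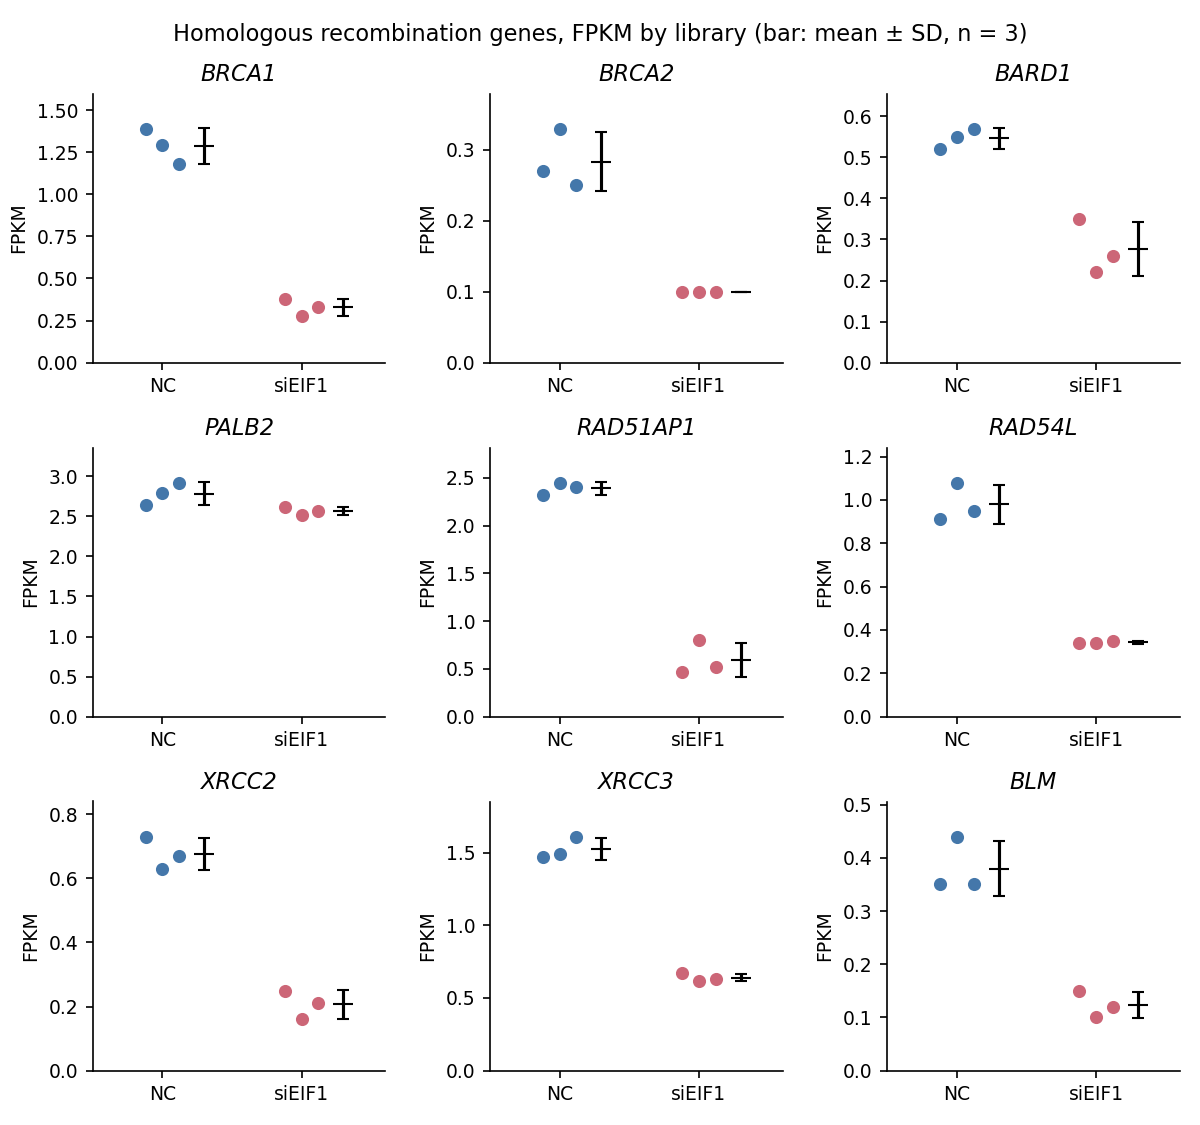
FPKM of each gene in the 3 NC and 3 siEIF1 libraries, 1 point per library, with the mean and SD beside the points and every axis starting at 0. The points of the groups lie far apart in 8 panels. In the PALB2 panel they lie close, from 2.64 to 2.92 in NC and from 2.51 to 2.61 in siEIF1.

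BRCA1 and BARD1 form a heterodimer with ubiquitin ligase activity that acts at the trimmed ends and hands them on to PALB2. BRCA1 (ENSG00000012048.23) lies on the reverse strand of chromosome 17 from 43044295 to 43170245 (GENCODE release 44, GRCh38), and its canonical transcript has 23 exons. Its FPKM was 1.39, 1.29 and 1.18 in NC and 0.38, 0.28 and 0.33 in siEIF1. The NC values were 1.29 ± 0.105 (SD, n = 3) and the siEIF1 values 0.33 ± 0.05 (SD, n = 3), with no overlap. The log2 fold change was -1.95 with a standard error (SE) of 0.115 (edgeR, adjusted p = 3.77e-07), or 26% of the NC level with a 95% interval from 21.8% to 30.8%. Only 19 tested genes, EIF1 among them, had a lower log2 fold change.

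BARD1 (ENSG00000138376.11, chromosome 2, 214725646 to 214809683, reverse strand) had an FPKM of 0.52, 0.55 and 0.57 in NC and of 0.35, 0.22 and 0.26 in siEIF1. The groups did not overlap, but siEIF1 replicate 1 stood well above the other siEIF1 libraries. On the log2 scale siEIF1 minus NC was -0.97 (SE 0.166, edgeR, adjusted p = 0.00111), which passed the test and not the fold change limit. Leaving out siEIF1 replicate 1 moved it to -1.19 and leaving out NC replicate 1 to -1.0, and with either left out BARD1 was called.

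The log2 fold change of BRCA1 had a 95% interval from -2.19 to -1.70 and that of BARD1 from -1.33 to -0.615, and these intervals did not overlap. In NC there was 2.67, 2.35 and 2.07 times as much BRCA1 as BARD1 mRNA per length, and in siEIF1 1.09, 1.27 and 1.27 times as much. By FPKM, BRCA1 was thus in excess of BARD1 in NC and close to level with it after the knockdown. The log2 ratio dropped by 0.963 and the groups did not overlap (two-sided exact permutation test over libraries, p = 0.1, the smallest p that 3 against 3 allow, and 0.1 after adjustment over 4 pairs).

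PALB2 binds BRCA1 on one side and BRCA2 on the other, and BRCA2 is the mediator that places the recombinase on single-stranded DNA. PALB2 (ENSG00000083093.10, chromosome 16, 23603160 to 23641321, reverse strand) had an FPKM of 2.64, 2.79 and 2.92 in NC and of 2.61, 2.51 and 2.56 in siEIF1. Every siEIF1 value was below every NC value, yet the lowest NC and the highest siEIF1 library differed by less than the spread within NC. PALB2 gave a log2 fold change of only -0.10 (SE 0.0712, edgeR, adjusted p = 0.354), and its 95% interval from -0.256 to 0.051 excludes a 2-fold fall. As a share of NC this is 93.1%, with an interval from 83.7% to 104%.

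BRCA2 (ENSG00000139618.17, chromosome 13, 32315086 to 32400268, forward strand) had the lowest mean FPKM of the 9 in both groups. In siEIF1 its libraries overlapped those of BLM. The FPKM values of BRCA2 are rounded to 2 decimals and were 0.1 in each siEIF1 library, so its counts show more. They were 114, 147 and 110 in NC and 47, 46 and 47 in siEIF1. All siEIF1 counts lay far below the NC counts, although the siEIF1 libraries were the deeper ones. By the counts its log2 fold change was -1.51 (SE 0.168, edgeR, adjusted p = 4.1e-05), or 35% of NC with an interval from 27.2% to 45%.

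These values change the mRNA ratios along the chain from BRCA1 through PALB2 to BRCA2, and no protein of the chain was measured. Per unit of PALB2, BRCA2 had an FPKM ratio of 0.102, 0.118 and 0.0856 in NC and of 0.0383, 0.0398 and 0.0391 in siEIF1, and the log2 ratio dropped by 1.37. BRCA1 had a ratio to PALB2 of 0.527, 0.462 and 0.404 in NC and of 0.146, 0.112 and 0.129 in siEIF1, and the log2 ratio dropped by 1.85. Neither ratio overlapped between the groups (two-sided exact permutation test, p = 0.1 for each and 0.1 after adjustment over 4 pairs, the smallest p this design allows). Both ratios share PALB2 and so are not independent of each other.

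**Figure D3:**
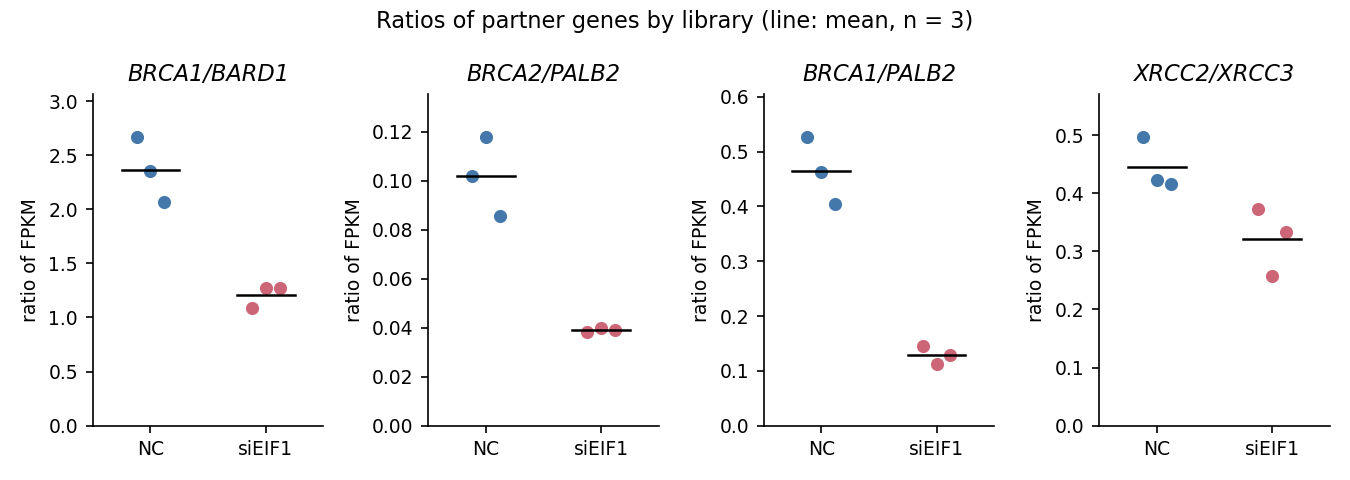
Ratio of the FPKM values of the genes named above each panel, 1 point per library, with the group mean as a line and axes starting at 0. In each of the 4 panels all siEIF1 points lie below all NC points, with the narrowest gap for XRCC2/XRCC3.

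RAD51AP1 and RAD54L act once the filament has formed. RAD51AP1 stimulates the pairing of the filament with the intact duplex, and RAD54L is a DNA translocase that drives strand exchange. RAD51AP1 (ENSG00000111247.15, chromosome 12, 4538798 to 4560047, forward strand) had an FPKM of 2.32, 2.45 and 2.4 in NC and of 0.47, 0.8 and 0.52 in siEIF1. It had the second highest FPKM of the 9 in NC, and here siEIF1 replicate 2, not replicate 1, was the highest of its group. The log2 fold change was -1.99 (SE 0.176, edgeR, adjusted p = 5.56e-06), or 25.3% of NC with an interval from 19.4% to 32.9%.

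RAD54L (ENSG00000085999.13, chromosome 1, 46246461 to 46278480, forward strand) had an FPKM of 0.91, 1.08 and 0.95 in NC and of 0.34, 0.34 and 0.35 in siEIF1. The siEIF1 libraries were nearly level with each other and far below NC. RAD54L had a log2 difference of -1.5 (SE 0.152, edgeR, adjusted p = 1.75e-05), or 35.3% of NC with an interval from 28.2% to 44.3%. Of its exon bases, 19.9% are also exons of LRRC41 on the other strand, a gene with a mean count of 3380 and a log2 fold change of 0.13 (SE 0.0453, edgeR, adjusted p = 0.0537). How much LRRC41 signal the RAD54L counts hold was not tested.

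XRCC2 and XRCC3 are paralogs of the recombinase that sit in different complexes and help build and steady the filament. XRCC2 (ENSG00000196584.3, chromosome 7, 152644776 to 152676193, reverse strand) had an FPKM of 0.73, 0.63 and 0.67 in NC and of 0.25, 0.16 and 0.21 in siEIF1. Its log2 fold change was -1.69 (SE 0.19, edgeR, adjusted p = 4.34e-05), or 30.9% of NC. XRCC3 (ENSG00000126215.14, chromosome 14, 103697609 to 103715504, reverse strand) had an FPKM of 1.47, 1.49 and 1.61 in NC and of 0.67, 0.62 and 0.63 in siEIF1. Its log2 fold change of -1.23 was smaller and had a narrower standard error of 0.0887 (edgeR, adjusted p = 1.09e-06), and it left 42.5% of the NC level. The groups did not overlap for either gene.

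The ratio of XRCC2 to XRCC3 was 0.497, 0.423 and 0.416 in NC and 0.373, 0.258 and 0.333 in siEIF1, and the log2 ratio dropped by 0.482 (two-sided exact permutation test, p = 0.1, and 0.1 after adjustment over 4 pairs). The groups did not overlap, but the 95% intervals of the log2 fold changes did, from -2.10 to -1.28 for XRCC2 and from -1.43 to -1.04 for XRCC3. XRCC3 shares 76.7% of its exon bases with KLC1, a kinesin light chain gene on the other strand with a mean count of 2569 and a log2 fold change of 0.03 (SE 0.0455, edgeR, adjusted p = 0.706). The authors describe strand-specific libraries, but the strand setting of the counting is not given in the sources used here. How much KLC1 signal the XRCC3 counts hold was not tested.

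BLM is a helicase that, with its partners, dissolves joined molecules without crossing over. BLM (ENSG00000197299.13, chromosome 15, 90717346 to 90816166, forward strand) had an FPKM of 0.35, 0.44 and 0.35 in NC and of 0.15, 0.1 and 0.12 in siEIF1. With 89 to 121 counts in NC and 29 to 45 in siEIF1 it was the thinnest of the 9 in mean count, and its standard error of 0.197 was the widest. BLM changed by -1.59 on the log2 scale (edgeR, adjusted p = 0.0001), or 33.1% of NC with an interval from 24.7% to 44.5%.

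**Figure D4:**
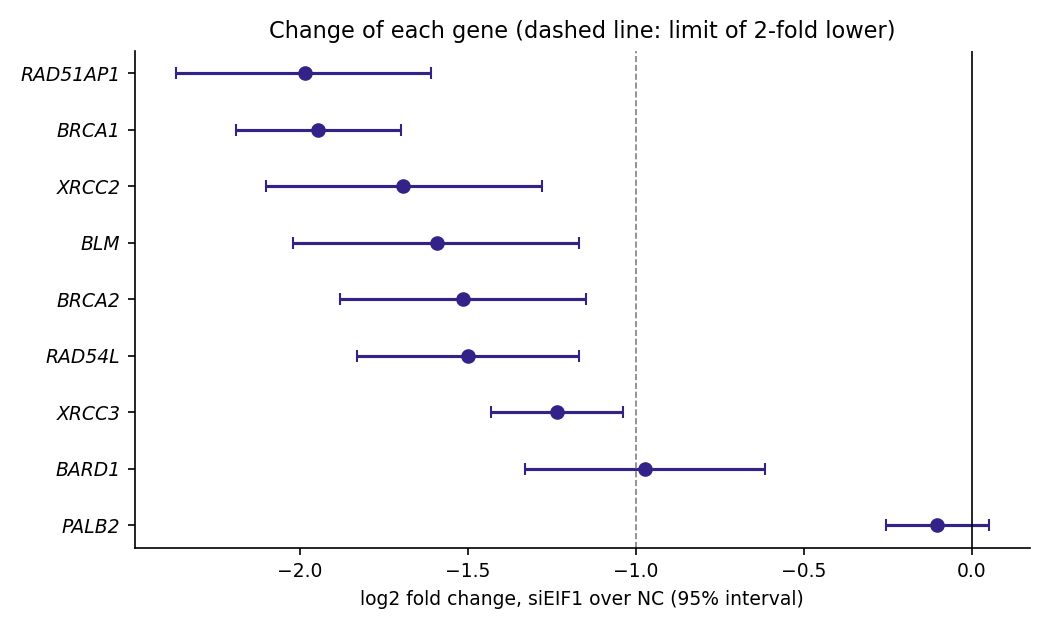
Log2 fold change of each gene (siEIF1 over NC, from counts) with its 95% interval, sorted by size, with 0 as a solid line and the limit of 2-fold lower as a dashed line. The intervals of 7 genes lie wholly below the dashed line, that of BARD1 crosses it, and that of PALB2, from -0.256 to 0.051, spans 0.

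By FPKM, the order of the 9 in NC was PALB2, RAD51AP1, XRCC3, BRCA1, RAD54L, XRCC2, BARD1, BLM and BRCA2. Averages ran from 2.78 down to 0.283 FPKM, and no neighbours in that order had overlapping libraries. The order rests on the transcript lengths behind the FPKM values, which are not given. In NC replicate 1, PALB2 had 408 counts at an FPKM of 2.64 and XRCC3 had 359 at 1.47. Yet the canonical transcript is shorter for XRCC3 (2567 bases) than for PALB2 (4008 bases), so other lengths could give another order. In siEIF1 the range ran from 2.56 to 0.1 FPKM, and PALB2, first at 2.56, was followed by XRCC3 at 0.64 and RAD51AP1 at 0.597. In that group 5 pairs of neighbours overlapped and so were not told apart: XRCC3 with RAD51AP1, RAD54L with BRCA1, BRCA1 with BARD1, BARD1 with XRCC2, and BLM with BRCA2. The 9 values summed to 10.6 to 11 FPKM in NC libraries and to 5.08 to 5.32 in siEIF1 libraries.

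Among the siEIF1 libraries the members did not all vary alike. Replicate 1 had the highest CPM for 6 of the 9 and replicate 2 for 3, RAD51AP1 among them, while replicate 3 was highest for 0. The median deviation from the group mean on the log2 scale was 0.071 in siEIF1 replicate 1 and between -0.0279 and -0.0165 in the others. In NC, replicate 1 was lowest for 6 of the 9.

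The other genes of the pathway were taken from 3 lists by step, and are read against the same shares over all tested genes, 1.31% called lower and 10.4% lower at an adjusted p under 0.05 by edgeR. Of 12 tested genes of end resection and the BRCA1 complexes, 2 were called lower and 0 higher, with a median log2 fold change of -0.16. The nuclease EXO1 had a log2 fold change of -1.66 (SE 0.155, edgeR, adjusted p = 9.08e-06), and BRIP1, a helicase that binds BRCA1, of -1.30 (SE 0.145, edgeR, adjusted p = 4.26e-05). MRE11, the nuclease that starts resection, had one of -0.40 (SE 0.0644, edgeR, adjusted p = 0.00072). ABRAXAS1, the scaffold of a further BRCA1 complex, rose by 0.56 on that scale, from 4.26 to 6.18 FPKM (SE 0.0664, edgeR, adjusted p = 7.18e-05). In all, 6 of the 12 were lower and 2 higher at an adjusted p under 0.05 by edgeR. The count of called genes was 3 without NC replicate 1 or 3 and without siEIF1 replicate 1 or 2.

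Of 16 tested genes of filament assembly and strand exchange, 2 were called lower and 0 higher, with a median log2 fold change of -0.20, and 6 were lower at an adjusted p under 0.05 by edgeR. The subunits of the trimer that coats single-stranded DNA had unlike values. RPA2 had a log2 fold change of -1.28 (SE 0.0652, edgeR, adjusted p = 1.29e-07), RPA3 of -0.46 (SE 0.0836, edgeR, adjusted p = 0.00166) and RPA1, named after its value was seen, of -0.08 (SE 0.049, edgeR, adjusted p = 0.312). The other called gene was PSMC3IP, a cofactor of strand exchange known from meiosis, at -1.33 (SE 0.143, edgeR, adjusted p = 3.07e-05). FIGNL1, which takes the filament apart, stood at -0.55 (SE 0.103, edgeR, adjusted p = 0.00214).

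Of 16 tested genes that process joined molecules, 3 were called lower and 0 higher, with a median log2 fold change of -0.20, and 6 were lower at an adjusted p under 0.05 by edgeR. MCM8, a helicase subunit, stood at a log2 fold change of -1.32 (SE 0.116, edgeR, adjusted p = 5.35e-06). HROB, which recruits that helicase and is named after its value was seen, was at -1.04 (SE 0.199, edgeR, adjusted p = 0.00244). EME1, a subunit of the nuclease made with MUS81, had one of -1.04 (SE 0.171, edgeR, adjusted p = 0.000828). RMI2, part of the complex that works with BLM, had one of -0.90 (SE 0.108, edgeR, adjusted p = 7.79e-05), and GEN1, a resolvase, one of -0.54 (SE 0.0791, edgeR, adjusted p = 0.000362). In the same list MUS81 was at 0.11 (SE 0.0666, edgeR, adjusted p = 0.262) and MCM9 at 0.07 (SE 0.0949, edgeR, adjusted p = 0.683). TOP3A was at -0.19 (SE 0.075, edgeR, adjusted p = 0.0866). MUS81, MCM9 and TOP3A are named after their values were seen. HROB and EME1 lay close to the 2-fold limit, and the count of called genes was 2 without NC replicate 1 and without each siEIF1 replicate in turn.

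The genes of classical end joining, the pathway that ligates broken ends without a template and works outside S phase too, were listed together with genes that protect the ends from resection. Of 16 tested genes of this list, 0 were called in either direction by edgeR and 0 were called lower by DESeq2 or limma. With 1.31% of all genes called lower, a count of 0 among 16 genes does not set the list apart from the background. At an unadjusted p under 0.05 in edgeR, 3 were lower and 1 higher. The list had a median log2 fold change of -0.03 and a range from -0.309 to 0.262. At an adjusted p under 0.05 in edgeR, PAXX was lower, at -0.26 (SE 0.0712, adjusted p = 0.0202), and POLL, a gap-filling polymerase, was higher, at 0.26 (SE 0.0642, adjusted p = 0.0109). LIG4, the ligase, stood at a log2 fold change of -0.31 (SE 0.132, edgeR, adjusted p = 0.121), and RIF1 at -0.18 (SE 0.0614, edgeR, adjusted p = 0.0567). The list does not hold POLQ, the polymerase of the alternative end joining route, which had a log2 fold change of -1.999 (SE 0.206, edgeR, adjusted p = 2.08e-05) and is named after its value was seen. The count of 0 thus covers the listed genes and not every end joining gene.

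Genes that mark dividing cells moved in the same libraries. Of 12 proliferation markers, 8 were called lower and all 12 were lower at an adjusted p under 0.05 by edgeR, with a median log2 fold change of -1.44 beside -1.51 for the recombination genes. Their summed FPKM was 122 to 128 in NC and 86.6 to 92.0 in siEIF1. PCNA and TYMS, named after their values were seen, made up most of that sum and changed least of the 12. PCNA went from 67.0 to 54.6 FPKM, a log2 fold change of -0.28 (SE 0.0525, edgeR, adjusted p = 0.00226). TYMS went from 26.5 to 22.4 FPKM, at -0.22 (SE 0.0576, edgeR, adjusted p = 0.0147). E2F1 had a log2 fold change of -1.84 (SE 0.116, edgeR, adjusted p = 5e-07), RRM2 of -1.73 (SE 0.118, edgeR, adjusted p = 7.82e-07), CDK1 of -1.66 (SE 0.0929, edgeR, adjusted p = 3e-07) and TOP2A of -1.54 (SE 0.095, edgeR, adjusted p = 4.64e-07). What part the share of dividing cells had in the recombination genes was not tested.

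**Figure D5:**
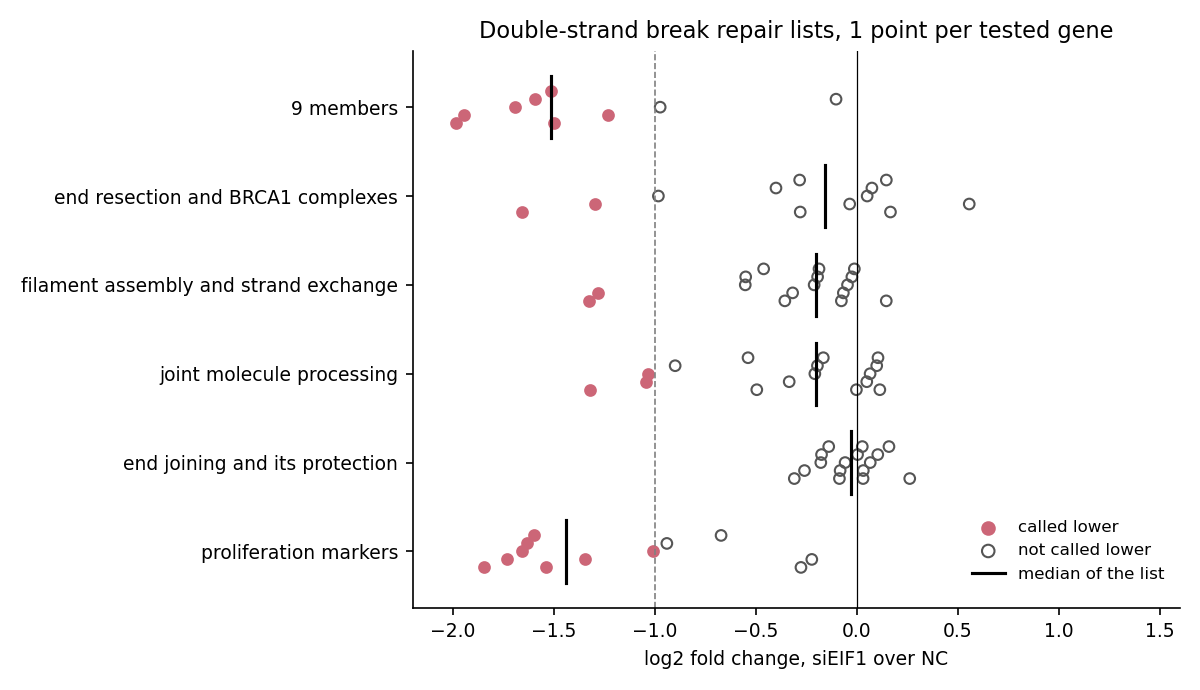
Log2 fold change (siEIF1 over NC) of every tested gene in 6 lists, 1 point per gene, filled where the gene was called lower, with the median of each list as a black line and the limit of 2-fold lower as a dashed line. The 9 members and the proliferation markers lie mostly left of the dashed line, at medians of -1.51 and -1.44, and all 16 listed end joining genes lie right of it.

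Genes that start close by on the other strand share the promoter region with some members. With start sites at most 1000 bases apart, 7 members had such a neighbour, and 4 of the neighbours, all named here for their position, were tested. NBR2, whose start lies 187 bases from that of BRCA1, had a log2 fold change of -0.33 (SE 0.104, edgeR, adjusted p = 0.038), beside -1.95 for BRCA1. ZFYVE21, 359 bases from XRCC3, rose by 0.39 on the log2 scale (SE 0.063, edgeR, adjusted p = 0.000757), where XRCC3 was at -1.23. C12orf4, 421 bases from RAD51AP1, stood at a log2 fold change of -0.25 (SE 0.0925, edgeR, adjusted p = 0.0765), and DCTN5, 156 bases from PALB2, at 0.13 (SE 0.055, edgeR, adjusted p = 0.131).

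Over the 6 libraries, the genes outside the 9 whose log2 CPM ran closest to the mean of the members' standardised log2 CPM included RACGAP1 (Pearson r = 0.9989), S100PBP (0.9978), SNHG32 (0.9978) and TMEM168 (0.9974), out of 13374 genes with a mean count of at least 50. This is a description over 6 points that fall into the NC and siEIF1 groups. The likeness is of shape and not of size, since the log2 fold changes of these 4 ran from -0.72 for RACGAP1 to -0.38 for SNHG32.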

How the data were processed

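RNA-seq of the 3 NC and 3 siEIF1 libraries was used, each assigned from its sample title. The authors trimmed the reads with FASTX-Toolkit, aligned them to GRCh38 with HISAT2, counted uniquely mapped reads and deposited raw counts per gene. The libraries are described as strand-specific, but the counting program, its strand setting and the annotation release are not given in the sources used here. The authors also deposited FPKM values, rounded to 2 decimals, which served for levels and ratios. Counts were filtered with filterByExpr, scaled by TMM and tested with edgeR 4.0.16 in R 4.3.3 over all 16749 genes, with Benjamini-Hochberg adjustment and limits of 0.05 and of 2-fold (0.5 or 2). Standard errors came from the F statistic. Libraries are called biological replicates in the methods. Alternatives were DESeq2 1.42.0, limma 3.58.1 on FPKM, other scalings, filters and limits, the replicate block, and leaving out each library. The scripts were tested on simulated counts. Depth was 26499929 to 31431479 counts per library, and low-count genes have wider errors.

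The 9 genes, the pathway and marker lists and the promoter letters were chosen with earlier results of these data known, and TTCCCGC was picked after the promoters were read. Named are the 9, EIF1, up to 4 genes per list with the smallest p-values and the 5 genes of most like pattern, 1 of which is not reported here. Gene coordinates are from GENCODE release 44 on GRCh38. Of the 9 gene IDs in the files, 5 match it with the same version. All 9 genes matched a RefSeq promoter, and the window nearest the canonical start site was taken.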

Additional observations from a re-analysis of the deposited data

How the results depend on the processing

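The count of 8 members lower at an adjusted p under 0.05 was the same in all 14 alternative fits. The count of 7 called members was 6 to 8 in every alternative but limma on log2(FPKM + 1), a scale that compresses genes of FPKM near or under 1, where 1 member (RAD51AP1) was called, the members' median was -0.475, and 19 genes of all were called lower. On that scale the resection, filament and joint molecule lists had 0, 1 and 0 called genes. With log2(FPKM + 0.1) the median was -1.13, BRCA2 (-0.93) was not called, and the resection and joint molecule lists had 1 called gene each. Leaving out a library gave 2 to 3 called genes in each of the resection and joint molecule lists. Members without overlap between the groups were 8 of 9 with upper-quartile scaling and with no filter. A fold change limit of 1.5 called 472 genes lower in place of 219. The log2 ratios of partner genes kept their sign in all 7 alternatives each.

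With the replicate number as a block, 7 members were called and their median was -1.51. The numbers were not taken as pairs: the deviations of same-numbered libraries correlated at 0.152, 0.0907 and 0.123, though each library correlated best with its own number. Depth limits BLM and XRCC2 most: with 28 to 121 counts in a library they have the widest standard errors of the 9.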
